A study of Mus musculus with 8 samples.

Results

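The genes described here are 9 nuclear receptor and coregulator genes that act with or beside PPARγ in regulatory T cells (Tregs): the PPAR genes Pparg, Ppara and Ppard, the RXR genes Rxra and Rxrb, the LXR genes Nr1h3 (LXRα) and Nr1h2 (LXRβ), the corepressor gene Ncor1 and the coactivator gene Ppargc1b. They were taken by gene symbol, and all 9 were found among the 55011 genes of the count table. Of the 9, 8 passed the filter on low counts and were tested among 12414 genes, and Ppara did not pass. Nr1h3 passed that filter through WT spleen alone, the group in which it is high, so it had to differ from the other groups: its values are given as a description, with no test, and the counts of genes below are over the 7 others. Tregs are the Foxp3-expressing subset of CD4 T cells, which holds immune responses in check. The 8 libraries came from Tregs of skin and spleen of 2-week-old mice (day 13 in the sample titles), each made from 1000 cells sorted in 2 rounds. The genotypes were Pparg+/+ Foxp3-Cre (here WT) and Ppargf/f Foxp3-Cre (here KO), with 2 libraries for each genotype in each tissue. Mice of all 4 groups carried the Foxp3-Cre transgene and none was treated, so the recombinase was present in WT and KO alike. Foxp3-Cre is driven by the Foxp3 gene, so it acts in cells that express Foxp3. How many animals went into a library is not in the labels, so a p-value here speaks only of how far these libraries vary.

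PPARs are nuclear receptors that bind fatty acids and their derivatives, and LXRs bind oxidised cholesterol. Both sit on DNA as heterodimers with an RXR, the receptor for 9-cis retinoic acid. Without an activating ligand such dimers can recruit the NCoR corepressor complex, encoded in part by Ncor1, which brings histone deacetylases to target genes. With a ligand they recruit coactivators, among them PGC-1β, the product of Ppargc1b. PPARγ is best known from fat cells and is also expressed by Tregs of adipose tissue and of other non-lymphoid tissues. The comparison of KO with WT asks whether the partners and relatives of PPARγ change when Pparg is deleted.

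Library totals ran from 3115832 to 4466963 counts, with 17262 to 19274 genes detected per library. The 10 Treg marker genes summed to 3959 to 7912 CPM of the total (counts scaled to a common library total), and each of the 10 had counts in every library. Markers of fat cells, in which Pparg is high, summed to at most 2.43 CPM of the total, and Plin1, Cidec, Cidea, Lep and Retn were at 0 in all 8 libraries. Keratinocyte markers summed to 3.61 to 9.83 CPM of the total. Replicate 1 of each group carried Xist at 453 to 554 CPM of the total and no counts of 4 Y-linked genes, while replicate 2 of each group carried the Y-linked genes at 252 to 446 CPM and Xist at no more than 0.280 CPM. The replicates of every group thus differed in sex, and the spread within a group includes it. Levels below are CPM scaled by TMM unless stated otherwise.

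Pparg, the deleted gene, was first read in every library (chromosome 6, 115360951 to 115490399, plus strand, mm10). It stood at 75.7 and 59.8 CPM in WT skin and at 8.46 and 13.3 CPM in KO skin. In spleen it stood at 22.5 and 12.3 CPM in WT and at 2.16 and 1.66 CPM in KO. Each KO library lay below both WT libraries of its tissue, and KO skin replicate 2 lay slightly above WT spleen replicate 2. Pparg fell by 2.59 on the log2 scale in skin (SE 0.326, edgeR adjusted p = 0.000609) and by 2.89 in spleen (SE 0.394, edgeR adjusted p = 0.00418). The mean level left in KO was 16.0% of the WT mean in skin and 11.0% in spleen. The spleen call was lost with limma-voom (adjusted p = 0.0716) and when KO spleen replicate 2 was left out (edgeR adjusted p = 0.0602). Counts per gene cannot tell which exons gave the remaining reads, and an antisense gene, Gm44079, overlaps Pparg, from which its reads cannot be told apart without strand. In pooled cells, fewer cells with Pparg and less Pparg RNA per cell cannot be told apart.

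Among these 7 genes, Pparg was the only one past the threshold of an edgeR adjusted p of 0.05 in either tissue. That is 1 of 7 in skin, where 0.894% of all tested genes passed, and 1 of 7 in spleen, where 0.282% passed. This call is of the gene deleted by design and does not bear on its partners. None of the 6 others passed in skin (edgeR adjusted p from 0.0930 to 0.999) or in spleen (0.854 to 0.998). By edgeR, 1 of the 6 in skin and 0 in spleen had an unadjusted p under 0.05. The share of all tested genes at that cutoff is not given here, so these counts are descriptions. DESeq2 and limma-voom also called none of these 6 in either tissue. The 6 had a median log2 difference of 0.04 in skin, with 4 of 6 above 0, against 0.01 over all tested genes. In spleen the 6 had a median of 0.17, again with 4 above 0, against a median over all tested genes of -0.002. Of all tested genes, 48.9% lay below 0 in skin and 50.4% in spleen. Averaged over the tissues, Pparg alone passed (log2 fold change -2.74, SE 0.256, edgeR adjusted p = 1.81e-05), where 0.789% of all genes did. Libraries of KO and WT did not overlap for 4 of the 7 genes in skin (57.1%), where this held for 39.9% of all tested genes. The same held for 4 of 7 in spleen, against 38.6% of all tested genes. Pparg, deleted by design, is 1 of the 4 in each tissue. The others were Nr1h2, Ncor1 and Ppargc1b in skin and Ppard, Nr1h2 and Ppargc1b in spleen.

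**Figure D1:**
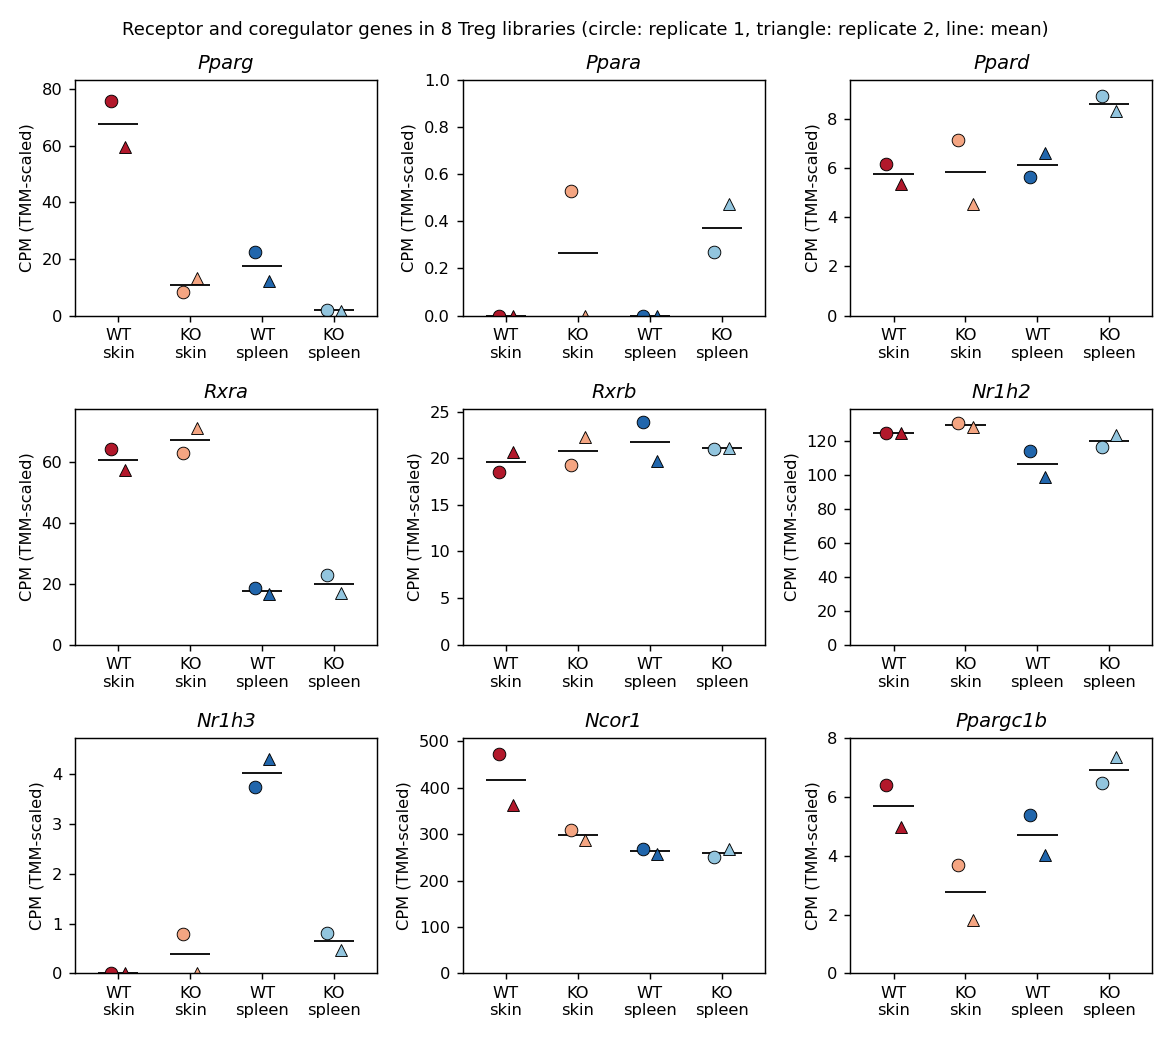
TMM-scaled CPM (vertical axis, linear, from 0) of each of the 9 genes in the 8 libraries, by group, with circles for replicate 1, triangles for replicate 2 and a line at the mean of the 2. Pparg drops from 75.7 and 59.8 CPM in WT skin to 8.46 and 13.3 in KO skin, while Rxra separates by tissue (57.3 CPM and above in skin, 22.9 and below in spleen) and Nr1h2 and Rxrb stay within narrow bands.

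The other PPAR genes were low in all groups. Ppard encodes the broadly expressed PPARδ, which drives fatty acid oxidation (chromosome 17, 28232700 to 28301474, plus strand). It had 6.17 and 5.34 CPM in WT skin and 7.13 and 4.53 in KO skin, and the groups overlapped. Its spleen levels were 5.62 and 6.58 CPM in WT and 8.90 and 8.30 in KO, with both KO libraries above both WT libraries. The difference did not pass in skin (log2 0.02, SE 0.456, edgeR adjusted p = 0.999) or in spleen (log2 0.46, SE 0.443, edgeR adjusted p = 0.918). With 15 to 35 counts per library, the 95% interval of the KO to WT ratio ran from 0.520 to 1.97 in skin and from 0.722 to 2.63 in spleen. Ppara encodes PPARα, the fatty acid sensor of liver and muscle (chromosome 15, 85734983 to 85802819, plus strand). It had no count in WT of either tissue, 2 counts in KO skin replicate 1, and 1 and 2 counts in KO spleen. These are at or under the floor of 3 counts per group, which corresponds to 0.379 to 0.437 CPM, so no fold is given.

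Levels of different genes were compared per kilobase of exon. The PPAR genes together had 26.5 and 21.0 CPM per kilobase in WT skin and 3.95 and 5.10 in KO skin. In spleen the sum was 8.36 and 5.04 CPM per kilobase in WT and 1.99 and 1.79 in KO. Pparg made up 96.9% and 96.6% of this sum in WT skin and 72.5% and 88.2% in KO skin. Its share in spleen was 91.1% and 82.6% in WT against 36.8% and 31.4% in KO, where Ppard held most of the remainder. The summed PPAR level of every KO library thus lay below that of both WT libraries of its tissue. Pparg, the deleted gene, made up most of the WT sum, so this fall mainly restates its loss.

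**Figure D2:**
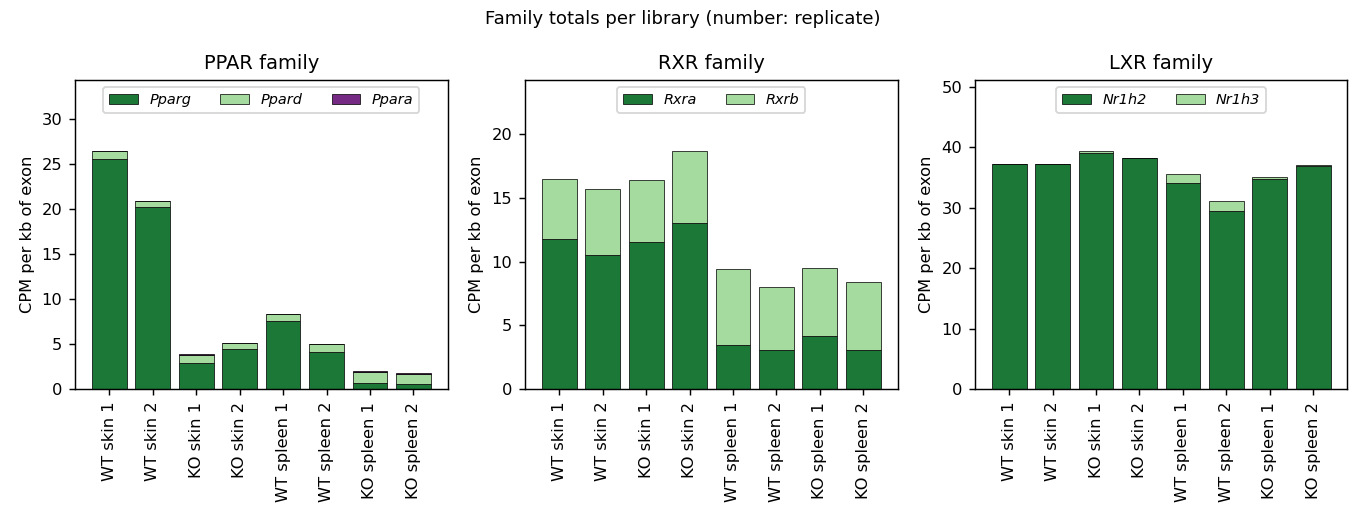
Stacked bars of CPM per kilobase of exon (vertical axis, linear, from 0) in each of the 8 libraries for the PPAR, RXR and LXR genes, with colours for the genes of each family. The PPAR sum is 26.5 and 21.0 in WT skin and 3.95 and 5.10 in KO skin, the RXR sum separates skin (15.7 to 18.7) from spleen (8.01 to 9.49), and the LXR sum runs from 31.1 to 39.4 across all libraries.

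The RXR genes encode the shared partners of PPARs and LXRs. Rxra (chromosome 2, 27676440 to 27762957, plus strand) had 64.4 and 57.3 CPM in WT skin and 63.2 and 71.2 in KO skin. In spleen it had 18.7 and 16.6 CPM in WT and 22.9 and 16.8 in KO. The genotypes overlapped in skin, and in spleen KO replicate 2 lay between the WT libraries. The KO to WT difference was 0.14 on the log2 scale in skin (SE 0.213, edgeR adjusted p = 0.881) and 0.16 in spleen (SE 0.239, edgeR adjusted p = 0.966). The 95% interval of the ratio ended at 1.50 in skin and at 1.58 in spleen. Rxrb (chromosome 17, 34031812 to 34038399, plus strand) lay between 18.5 and 23.9 CPM in all 8 libraries. Its KO to WT difference was 0.09 in skin (SE 0.281, edgeR adjusted p = 0.955) and -0.05 in spleen (SE 0.274, edgeR adjusted p = 0.997). The intervals of its ratio ended at 1.60 in skin and 1.44 in spleen. Rxrg, the RXR gene of muscle and brain, had 2 counts in WT spleen, 1 in KO skin and none elsewhere, and it was not tested.

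The LXR genes differed in level from each other. Nr1h2, the broadly expressed LXRβ (chromosome 7, 44549616 to 44553951, minus strand), had the highest level per kilobase of the 9 genes in every group. It had 125 CPM in both WT skin libraries and 131 and 129 in KO skin. The spleen libraries had 114 and 98.7 CPM in WT and 117 and 124 in KO. KO libraries lay above WT libraries in both tissues and the differences did not pass, with a log2 value of 0.05 in skin (SE 0.136, edgeR adjusted p = 0.941) and 0.17 in spleen (SE 0.136, edgeR adjusted p = 0.854). Its ratio was the most tightly bounded of the RXR and LXR genes, from 0.851 to 1.27 in skin and from 0.925 to 1.38 in spleen.

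Nr1h3 encodes LXRα, which is prominent in macrophages and liver (chromosome 2, 91184061 to 91202834, minus strand). It had 16 and 15 counts in the WT spleen libraries, against 3 and 2 in those of KO spleen. Of the skin libraries, KO replicate 1 had 3 counts and the others had 0. WT spleen was the one group in which both libraries stood above the others. The ratio of pooled counts scaled to library size was 6.32 for WT spleen over KO spleen. It is a description, and the spread between libraries is not in it. In skin both genotypes were at or under the floor of 3 counts, and no fold is given. Myeloid markers, which would accompany macrophages, summed to 9.83 and 18.9 CPM of the total in WT spleen and to 14.1 and 31.2 in KO spleen, with 5 to 8 of the 10 genes detected. B cell markers summed to 50.2 and 47.3 CPM in WT spleen and to 27.6 and 33.0 in KO spleen, most of it Cd79b. Dendritic and Langerhans cell markers summed to 54.2 and 58.1 CPM in WT spleen and to 35.0 and 38.6 in KO spleen, most of it Epcam, with Batf3 at 0. The part of these cells in the Nr1h3 counts was not tested. Gm13783, a transcript on the same strand, overlaps Nr1h3, so the assignment of its few reads is uncertain.

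Ncor1 encodes NCoR1, the scaffold of the NCoR corepressor complex (chromosome 11, 62316426 to 62458541, minus strand). It had 473 and 362 CPM in WT skin and 308 and 288 in KO skin, with both KO libraries below both WT libraries. Spleen levels were 269 and 257 CPM in WT and 250 and 268 in KO, and the groups overlapped. The skin difference was -0.49 on the log2 scale (SE 0.127) with an unadjusted p of 0.00123, and it did not pass over all genes (edgeR adjusted p = 0.0930). The WT skin libraries differed from each other by more than the KO skin libraries did. Without WT skin replicate 2 the difference was -0.67 and passed (edgeR adjusted p = 0.00884), as it did with no filter on low counts (0.0143), while without WT skin replicate 1 it was -0.28 (edgeR adjusted p = 0.616). In spleen the difference was -0.02 (SE 0.127, edgeR adjusted p = 0.998), and it turned to 0.01 with upper-quartile scaling. The difference between the tissues' genotype effects was itself -0.47 (SE 0.179, unadjusted p = 0.0183) and did not pass (edgeR adjusted p = 0.400). Ttc19 and Pigl overlap Ncor1 on the opposite strand, so without strand its reads and theirs could be mixed.

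Ppargc1b is a coactivator gene and not a corepressor gene. PGC-1β promotes mitochondrial gene expression and works with PPARs and other receptors. It had 6.41 and 4.98 CPM in WT skin against 3.70 and 1.81 in KO skin. In spleen it had 5.38 and 4.01 CPM in WT against 6.47 and 7.35 in KO. The KO libraries thus lay below the WT libraries in skin and above them in spleen. Neither difference passed, at -0.92 in skin (SE 0.527, edgeR adjusted p = 0.581) and 0.51 in spleen (SE 0.505, edgeR adjusted p = 0.928). With 6 to 31 counts per library, the difference between the tissues' genotype effects was -1.42 (SE 0.727, unadjusted p = 0.0663, edgeR adjusted p = 0.563). Its relative Ppargc1a, which encodes PGC-1α, had no count in any library. Pprc1, the third gene of that family, had 9.62 and 21.4 CPM in WT skin against 19.3 and 24.4 in KO skin. In spleen it had 30.4 and 22.9 CPM in WT against 21.9 and 17.1 in KO. Its difference did not pass in skin (log2 0.51, edgeR adjusted p = 0.645) or in spleen (log2 -0.45, edgeR adjusted p = 0.845).

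**Figure D3:**
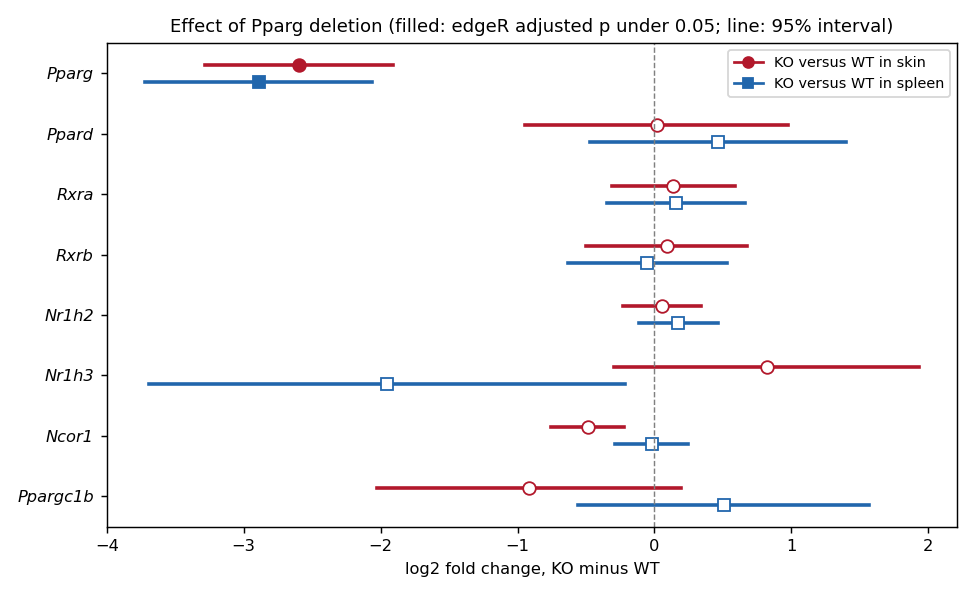
Log2 fold change of KO against WT (horizontal axis) for the 8 tested genes, with red circles for skin, blue squares for spleen and lines for the 95% interval; filled symbols passed an edgeR adjusted p of 0.05. Pparg lies at -2.59 and -2.89 with filled symbols, all other symbols are open, and the fitted value of Nr1h3 in skin rests on at most 3 counts.

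The direct test of whether the genotype effect differed between the tissues called 0 of the 7 genes by edgeR, where 0.0967% of all genes passed. DESeq2 and limma-voom called none either. By edgeR, 1 of the 7, Ncor1, had an unadjusted p under 0.05, a cutoff whose share over all tested genes is not given here. For Pparg the difference was 0.30 (SE 0.308, 95% interval from -0.35 to 0.95, edgeR adjusted p = 0.845), so a different depth of its loss in skin and spleen was not shown.

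Between tissues, Rxra and Pparg were higher in skin in both genotypes, and Ncor1 in WT. In WT, 3 of the 7 genes differed between skin and spleen, all higher in skin, where 31.8% of all tested genes passed. In KO, 2 of 7 differed, both higher in skin, where 29.0% passed. Libraries of the tissues did not overlap for 4 of 7 genes in WT and 6 of 7 in KO, where 66.6% and 65.2% of all genes did not. Rxra was higher in skin Tregs by 1.75 on the log2 scale in WT (SE 0.230, edgeR adjusted p = 1.29e-05) and by 1.73 in KO (SE 0.227, edgeR adjusted p = 1.36e-05). All 4 skin libraries lay above all 4 spleen libraries, the lowest in skin at 57.3 CPM and the highest in spleen at 22.9 CPM. The fitted ratio was 3.37 in WT and 3.32 in KO, and the difference of these effects was -0.02 (SE 0.281, edgeR adjusted p = 0.997) with a 95% interval from -0.61 to 0.57.

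Pparg was higher in skin by 1.92 in WT (SE 0.310, edgeR adjusted p = 0.000121). What remained of it in KO was higher in skin by 2.22 (SE 0.407, edgeR adjusted p = 0.000462). Ncor1 was higher in skin by 0.67 in WT (SE 0.127, edgeR adjusted p = 0.000571), and in KO its difference was 0.20 and did not pass (SE 0.127, edgeR adjusted p = 0.257). Nr1h3 had 31 counts in WT spleen and 0 in WT skin. Its scaled WT spleen level was 9.13 times a pooled floor of 3 counts in WT skin. That value depends on the floor chosen and is a description, not a lower bound. In KO, Nr1h3 had 5 counts in spleen and 3 in skin, a scaled ratio of 1.49. The exact binomial 95% interval of this KO ratio, 0.291 to 9.62, covers the counting of reads only. Ppargc1b in KO had an unadjusted p of 0.0386 and did not pass (log2 -1.17, SE 0.522, edgeR adjusted p = 0.105). Ppard, Rxrb and Nr1h2 passed in neither genotype (edgeR adjusted p from 0.222 to 0.969).

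Several marker lists moved with the tissue beside these genes. Dendritic and Langerhans cell markers summed to 123 to 226 CPM of the total in skin and 35.0 to 58.1 in spleen, with 3 to 7 of the 10 genes detected, and Epcam led in every library. Innate lymphoid and mast cell markers summed to 849 to 1620 CPM in skin and 374 to 481 in spleen, led by Gata3, which Tregs also express, with Mcpt4 and Fcer1a at 0. Endothelial markers summed to 83.1 to 128 CPM in skin and 295 to 404 in spleen, nearly all Pecam1. Fibroblast markers summed to 7.29 to 15.4 CPM in skin and 1.18 to 5.15 in spleen, led by Col1a1, with Pdgfra and Lum at 0. Within skin, the dendritic list summed to 196 and 226 CPM in WT and to 123 and 150 in KO. Most of that gap was Xcr1, a chemokine receptor gene of dendritic cells, at 82.4 and 78.6 CPM of the total in WT skin and 14.1 and 5.89 in KO skin, and it fell by 2.96 on the log2 scale (edgeR adjusted p = 0.00395). Epcam overlapped between the genotypes in skin, at 108 and 144 CPM of the total in WT and 93.8 and 131 in KO. Zbtb46 and Cd209a of the same list lay above 0 (log2 1.03 and 2.66, edgeR adjusted p = 0.462 and 0.265). The innate lymphoid list summed to 1620 and 1128 in WT skin and 849 and 886 in KO skin, and Gata3, which led it, fell by 0.61 (edgeR adjusted p = 0.0357). These marker genes were named after their values were seen. The part of such cells in the differences of Rxra, Pparg and Ncor1, between tissues or genotypes, was not tested.

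**Figure D4:**
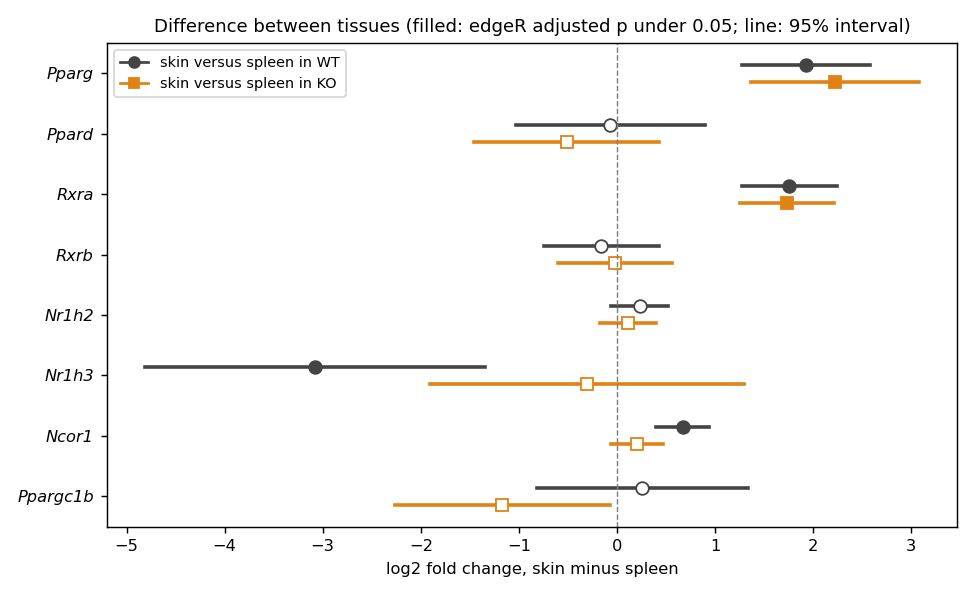
Log2 fold change of skin against spleen (horizontal axis) for the 8 tested genes, with grey circles for WT, orange squares for KO and lines for the 95% interval; filled symbols passed an edgeR adjusted p of 0.05. Rxra sits at 1.75 and 1.73 in WT and KO, Ncor1 is filled in WT alone, and the fitted value of Nr1h3 in WT, filled though it passed the low-count filter through WT spleen alone, is set by the prior count because WT skin had no count.

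The makeup of the RXR pool followed the tissue. The summed RXR level was 16.4 and 15.7 CPM per kilobase in WT skin against 16.4 and 18.7 in KO skin. It was 9.44 and 8.01 in WT spleen against 9.49 and 8.40 in KO spleen. Rxra held 71.7% and 66.9% of it in WT skin and 70.4% and 69.9% in KO skin. In spleen its share was 36.3% and 37.9% in WT and 44.2% and 36.7% in KO, so that Rxrb was the larger part there. The LXR sum ran from 31.1 to 39.4 CPM per kilobase over all 8 libraries, and Nr1h2 held at least 94.5% of it in each.

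The order of levels per kilobase showed where Pparg stood among its partners. In WT skin the order was Nr1h2 (37.3 ± 0.0308 CPM per kilobase, SD, n = 2), Ncor1 (32.6 ± 6.09), Pparg (22.9 ± 3.82), Rxra (11.1 ± 0.917), Rxrb (4.93 ± 0.381), Ppargc1b (1.43 ± 0.254) and Ppard (0.766 ± 0.0780), with no overlap between neighbours. In KO skin Pparg came after Nr1h2, Ncor1, Rxra and Rxrb, at 3.68 ± 1.15 CPM per kilobase. Below it, Ppard and Ppargc1b overlapped. In WT spleen Pparg (5.89 ± 2.43) overlapped Rxrb (5.49 ± 0.734), and both lay above Rxra (3.23 ± 0.275) and Nr1h3 (1.60 ± 0.154). In KO spleen Pparg was at 0.647 ± 0.119 CPM per kilobase, below Ppargc1b (1.73 ± 0.156) and Ppard (1.14 ± 0.0564). Per kilobase of the longest transcript in place of all exons, Pparg and Rxrb in WT spleen (8.18 and 8.30) and Ppargc1b and Ppard in spleen (1.28 and 1.64 in WT, 1.89 and 2.31 in KO) changed places, while in WT skin Ppargc1b and Ppard (1.56 and 1.54) then overlapped.

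Since Rxra and Pparg were both higher in skin, their promoters were read for the hexamer AGGTCA, which nuclear receptors of this class bind, and beside them that of Nr1h2, which did not pass between tissues. The sequences are RefSeq's (GRCm38.p6), 250 bases up to the start site on the gene's strand, 5′ to 3′, and capitals mark the hexamer on either strand (TGACCT is its reverse complement). Only windows clear of annotated exons are printed, namely both Rxra windows (chr2:27676951-27677200 and chr2:27709042-27709291, plus strand), 1 Pparg window (chr6:115421816-115422065, plus strand) and the Nr1h2 window (chr7:44553966-44554215, minus strand).
Rxra, upstream start: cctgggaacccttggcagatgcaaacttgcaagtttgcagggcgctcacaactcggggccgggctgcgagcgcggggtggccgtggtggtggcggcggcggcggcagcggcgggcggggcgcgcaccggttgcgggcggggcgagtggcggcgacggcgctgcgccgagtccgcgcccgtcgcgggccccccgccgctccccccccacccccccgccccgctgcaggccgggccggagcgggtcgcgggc
Rxra, downstream start: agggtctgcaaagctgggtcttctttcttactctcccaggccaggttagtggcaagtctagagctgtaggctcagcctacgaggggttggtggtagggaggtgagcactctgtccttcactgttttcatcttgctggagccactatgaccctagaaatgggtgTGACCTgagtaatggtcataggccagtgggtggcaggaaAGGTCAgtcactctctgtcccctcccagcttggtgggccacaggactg
Pparg, internal start: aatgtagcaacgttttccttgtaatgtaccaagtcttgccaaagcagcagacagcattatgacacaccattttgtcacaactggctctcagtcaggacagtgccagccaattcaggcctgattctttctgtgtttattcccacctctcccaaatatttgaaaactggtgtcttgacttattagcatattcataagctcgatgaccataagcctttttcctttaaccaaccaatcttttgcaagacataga
Nr1h2: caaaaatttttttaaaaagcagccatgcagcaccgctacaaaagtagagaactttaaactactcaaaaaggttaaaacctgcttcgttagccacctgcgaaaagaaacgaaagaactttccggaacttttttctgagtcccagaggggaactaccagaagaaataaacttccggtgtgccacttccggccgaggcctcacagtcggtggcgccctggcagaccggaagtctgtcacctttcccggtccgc
The second Rxra window held the hexamer at position -87 on the minus strand and at position -48 on the plus strand, counted from the start site to the first base shown. The other 3 held none. A further pair of Pparg windows, which overlap exons and are not printed, held the hexamer at -28 and at -9. Over the 14 promoter windows of 8 of the genes (that of Ppargc1b was not used here), 3 windows held the hexamer (21.4%), against 14.0% of 32851 mouse promoters of the same length. Its direct repeat with 1 base between, AGGTCANAGGTCA, the form known for PPAR with RXR, was in 0 of 14 and in 0.0335% of all. The repeat with 4 bases between, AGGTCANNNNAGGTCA, the form known for LXR with RXR, was in 0 of 14 and in 0.0152% of all. These matches describe letters in short windows and do not show binding.

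By pattern over the 8 libraries, the genes nearest to Pparg were Frmd5, Itga1, Plin2, Nrn1 and Nkg7. Likeness was the root mean square difference in log2 CPM after centring each gene on its mean, over 9557 genes, and was 0.474 for Frmd5, 0.612 for the integrin gene Itga1, 0.690 for the lipid droplet coat gene Plin2, 0.732 for Nrn1 and 0.754 for the cytotoxic granule gene Nkg7. The mean of Frmd5 went from 70.1 CPM in WT to 15.3 in KO skin, and from 23.6 in WT to 1.62 in KO spleen. By Pearson correlation, 2 of these 5 (Frmd5 and Itga1) were again among the nearest 5. The other members lay farther off, the nearest being Rxra at 1.46 (place 1081) and Ncor1 at 1.52 (place 1629). These places are among all 12414 tested genes, Pparg itself included, and not among the 9557.

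Genes that these receptors control, partner with or act through were read as 7 lists. Among all tested genes, edgeR called 0.894% in skin, 0.282% in spleen and 0.789% averaged over the tissues. At those shares, lists this short would hold few calls or none. The share of all tested genes at an unadjusted p under 0.05 is not given here, so list counts at that cutoff are descriptions only. Of 32 PPAR target genes 20 passed the low-count filter. In skin 1 of the 20 fell and none rose, where 0.894% of all tested genes were called. That gene was Plin2, at 358 and 233 CPM in WT skin and 36.5 and 27.2 in KO skin, a log2 fold change of -3.19 (SE 0.265, edgeR adjusted p = 0.000122). In spleen Plin2 had 28.6 and 42.1 CPM in WT and 8.63 and 13.8 in KO, and its difference of -1.59 did not pass (SE 0.299, edgeR adjusted p = 0.0516), though it did in 5 of 18 alternatives. The median of the 20 was -0.21 in skin and -0.09 in spleen, against 0.01 and -0.002 over all tested genes. Of the 20, 14 lay below 0 in each tissue, as did 48.9% of all tested genes in skin and 50.4% in spleen. By edgeR, 5 of the 20 in skin, 1 in spleen and 7 averaged over the tissues had an unadjusted p under 0.05. Of the fatty acid oxidation genes on the list, the 3 of smallest p in skin did not pass. Cpt1a, the entry enzyme of mitochondria, had 202 and 185 CPM in WT skin and 144 and 118 in KO skin (log2 -0.56, edgeR adjusted p = 0.0858). Acaa2, a thiolase, had 169 in both WT skin libraries and 114 and 116 in KO skin (log2 -0.55, edgeR adjusted p = 0.102), and the carnitine carrier gene Slc25a20 had 101 and 81.5 in WT and 64.5 and 60.3 in KO (log2 -0.55, edgeR adjusted p = 0.182). KO and WT skin libraries did not overlap for these 3 genes, as for 39.9% of all tested genes, and in spleen their differences were between -0.19 and 0.01 (edgeR adjusted p of 0.909 and above). Of the other oxidation genes, Cpt2 had a log2 difference of 0.31 in skin, Ech1 of -0.15 and Acadl of -0.20 (edgeR adjusted p of 0.640 and above), and these 3 were named after their values were seen.

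Of 18 LXR target genes 10 were tested, and edgeR called none in skin or spleen, with 2 in skin and 0 in spleen at an unadjusted p under 0.05. The medians were -0.17 in skin and -0.10 in spleen. Lpcat3, which remodels phospholipids, had 130 and 81.5 CPM in WT skin and 68.7 and 48.3 in KO skin (log2 -0.85, SE 0.220, edgeR adjusted p = 0.0958), and it passed in 4 of 18 alternatives, DESeq2 among them. The fatty acid desaturase gene Scd2 had 40.9 and 34.9 CPM in WT skin and 69.0 and 54.0 in KO skin (log2 0.69, edgeR adjusted p = 0.184), opposite in sign to Lpcat3. The cholesterol exporter gene Abcg1 ran from 94.9 to 116 CPM over all 8 libraries and Mylip, which marks the LDL receptor for degradation, from 27.4 to 69.5, and neither passed.

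Of 12 genes for other RXR partners 7 were tested and edgeR called none, with 1 in skin and 2 in spleen at an unadjusted p under 0.05. Nr4a1, an orphan receptor induced by T cell receptor signals, had 2392 and 2452 CPM in WT skin against 1797 and 1564 in KO skin. In spleen it had 120 and 126 CPM in WT against 68.8 and 107 in KO. Its difference was -0.53 in skin (SE 0.150, edgeR adjusted p = 0.168) and -0.48 in spleen (SE 0.162, edgeR adjusted p = 0.409), and it passed in 6 and 2 of 18 alternatives. Averaged over the tissues, all 7 lay below 0, as did 50.3% of all tested genes, with a median of -0.46 against -0.002 over all, and none passed (Nr4a1 lowest, edgeR adjusted p = 0.0749). The vitamin D receptor gene Vdr had 6.66, 7.12, 11.6 and 1.51 CPM in the WT and then KO skin libraries, and 2.11, 7.44, 1.08 and 0.237 in those of spleen. The thyroid receptor genes Thra and Thrb were at or below 14.8 CPM in every library, and none of these 3, all with few counts, passed.

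Of 29 other nuclear receptor genes 10 were tested and edgeR called none, with 0 in skin and 1 in spleen at an unadjusted p under 0.05. Nr3c1, the glucocorticoid receptor gene, had 331 and 329 CPM in WT skin and 254 and 327 in KO skin, and lay between 90.9 and 102 in all spleen libraries. Nr4a3 had 97.1 to 126 CPM in skin, and in spleen 5.38 and 2.58 in WT and 1.35 and 2.37 in KO (log2 -0.93, edgeR adjusted p = 0.535). Nr1h4, the bile acid receptor gene, had 6 counts in WT skin replicate 1, 1 in WT spleen replicate 2 and 4 in KO spleen replicate 1, and was not tested.

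The corepressor complex and the coactivators were measured nearly in full. All 12 genes of the NCoR corepressor complex list were tested and edgeR called none, with 0 in skin and 3 in spleen at an unadjusted p under 0.05. Hdac3, the deacetylase of the complex, had 94.7 and 101 CPM in WT skin against 117 and 100 in KO skin, and 154 and 124 in WT spleen against 113 in both KO libraries (log2 0.15 and -0.30, edgeR adjusted p = 0.801 and 0.664). Nrip1, a ligand-dependent corepressor, had 57.3 and 83.6 CPM in WT spleen against 99.5 and 101 in KO spleen (log2 0.51, edgeR adjusted p = 0.463). Hdac4 had 118 and 115 CPM in WT spleen and 146 in both KO spleen libraries (log2 0.32, edgeR adjusted p = 0.540), and Zbtb33 (Kaiso) ran from 6.76 to 19.9 over all libraries without passing.

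Of 19 coactivator genes 18 were tested and edgeR called none, with 1 in skin and 2 in spleen at an unadjusted p under 0.05. Their median was -0.10 in skin and 0.13 in spleen. Ncoa1, a steroid receptor coactivator, had 26.3 to 27.5 CPM in the skin libraries and, in the spleen libraries, 15.9 and 16.0 in WT against 32.6 and 24.9 in KO (log2 0.83, SE 0.262, edgeR adjusted p = 0.310). The acetyltransferase gene Ep300 had 153 and 125 CPM in WT skin and 105 and 117 in KO skin (log2 -0.33, edgeR adjusted p = 0.444). Kat2a had 39.5 and 30.1 CPM in WT spleen against 24.0 and 14.9 in KO spleen (log2 -0.83, edgeR adjusted p = 0.520), and Sirt1 had 20.0 and 21.0 in WT skin and 11.9 and 10.6 in KO skin (log2 -0.84, edgeR adjusted p = 0.538).

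Of 22 genes that supply lipid or retinoid ligands 6 were tested and edgeR called none, with 1 in skin and 0 in spleen at an unadjusted p under 0.05. Aldh1a3, which makes retinoic acid, had 31 and 9 counts in WT skin against 1 and 3 in KO skin, and 4 and 1 in WT spleen against none in KO spleen (edgeR adjusted p = 0.234 in skin and 0.654 in spleen). Rdh10, which makes retinal, ran from 1.07 to 9.83 CPM and Ptgs1, which makes prostaglandin H, from 0.237 to 13.2, and Stra6, a retinol transporter gene, had no count in skin. None of these passed in either tissue.

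**Figure D5:**
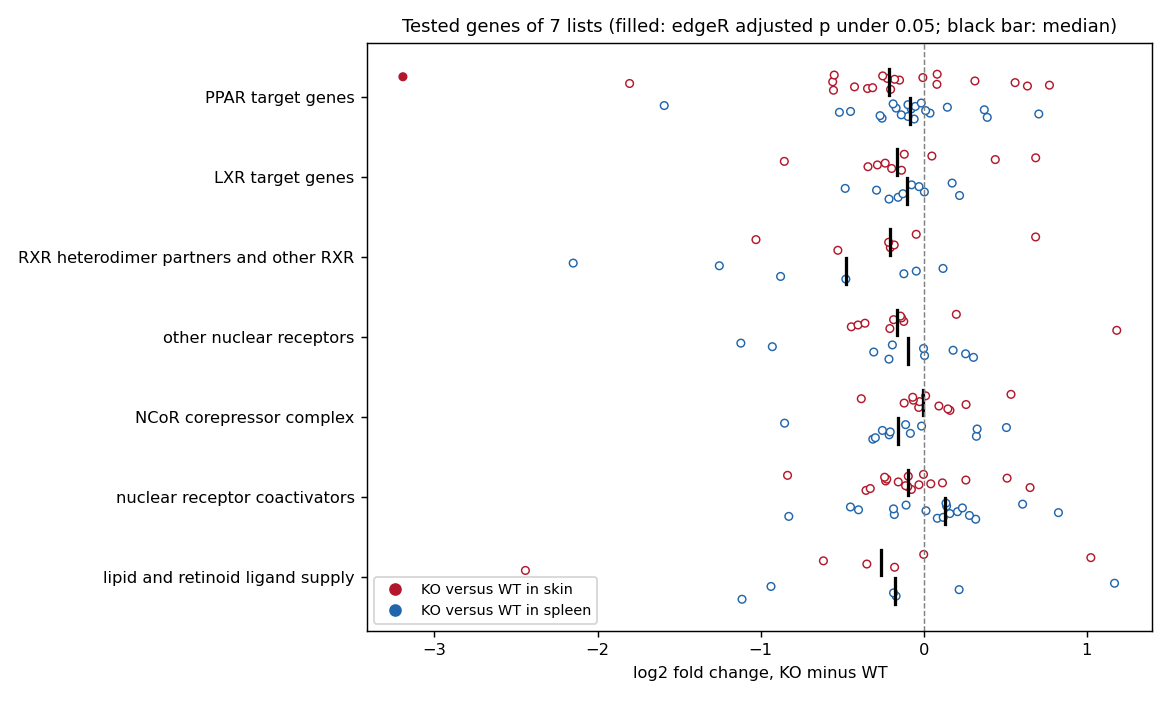
Log2 fold change of KO against WT (horizontal axis) for each tested gene of the 7 lists, with red for skin, blue for spleen, filled points past an edgeR adjusted p of 0.05 and black bars at the median of a list. The single filled point is Plin2 in skin at -3.19, and the list medians lie between -0.48 and 0.13.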

How the data were processed

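RNA was measured in 8 libraries of sorted mouse Tregs. The deposited table holds raw counts for each gene symbol, made by the authors with STAR 2.7.3a, featureCounts and build mm10 per the submitters' processing notes. The annotation, the strand setting and the handling of multi-mapping reads were not given in the sources used here. Per the labels, cDNA was primed with oligo(dT), amplified and tagmented, and fragments were read with 2 reads of 25 bases each. Amplified reads carry no molecular identifiers, so the counting interval and the floors cover the counting of reads only.

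Counts were scaled by TMM and filtered with filterByExpr (minimum count 10). The test was edgeR's (4.0.16) robust quasi-likelihood test, with a coefficient for each group, over all 8 libraries, with Benjamini-Hochberg adjustment over 12414 genes and a threshold of 0.05. A prior count of 2 shrinks the fold changes of genes with few counts. DESeq2 (1.42.0), limma-voom (3.58.1), other scalings, filters, prior counts and fits, a replicate block and leaving out each library were the alternatives, 18 for each comparison of a pair of groups. Levels per kilobase used the union of GENCODE M21 exons. The labels give no batch. The 9 genes and all lists were chosen with earlier results of these data known. From each list, the genes past the threshold or the 4 of smallest p in a KO against WT comparison of a tissue were named, with the relatives Rxrg, Ppargc1a, Pprc1 and Nr1h4. Some genes that met this rule are not reported here. The 5 genes nearest Pparg were taken among those with an average log2 CPM of at least 2, leaving out predicted genes and receptor segments.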

Additional observations from a re-analysis of the deposited data

How the results depend on the processing

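Pparg kept its direction in both tissues in all alternatives. The number of genes called in skin was 2 with no low-count filter, Ncor1 being added, and 1 to 2 when libraries were left out in turn. In spleen it was 0 with limma-voom and 0 to 1 when libraries were left out. Of the uncalled differences, some changed sign around 0. In skin, Ppard was -0.0113 with limma-voom and -0.32 to 0.28 when libraries were left out, Nr1h3 0 to 1.32, and Rxrb -0.0173 to 0.188. In spleen, Ncor1 was 0.0100 with upper-quartile scaling and -0.0688 to 0.0403 when libraries were left out, Rxra -0.0558 to 0.366, and Rxrb -0.163 to 0.0980. Averaged over tissues, the fitted value of Nr1h3 was -0.57 in the main edgeR fit, 0.13 with DESeq2 and 0.57 with a smaller prior count. Rxrb ran from -0.0401 to 0.0905 with libraries left out. The difference between tissues' genotype effects ran from -0.23 to 0.19 for Rxra, from -0.21 to 0.63 for Pparg and from -0.0149 to 0.245 for Rxrb. Skin against spleen ran from -0.171 to 0.0605 for Ppard and -0.258 to 0.00117 for Rxrb in WT, and from -0.118 to 0.0832 for Rxrb and -1.12 to 0.18 for Nr1h3 in KO. The fitted values of Nr1h3 are descriptions, with no test, since it passed the low-count filter through WT spleen alone. It had no count in WT skin, so its edgeR values that use that group depend on the prior count. The cause of the other sign changes was not tested.

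With the replicate number, and so the sex, as a replicate block, the call of none of the 7 genes changed in any comparison (Ncor1 in skin, edgeR adjusted p = 0.0796), and Lpcat3 passed in skin. The labels do not say that the numbers pair samples, and deviations of same-numbered replicates correlated at 0.0283 to 0.112 over 6 pairs of groups. Scaling moved the median of all tested genes by at most 0.05 on the log2 scale. Depth limits the genes with few counts, Ppara, Nr1h3, Ppard and Ppargc1b, and 2 libraries per group limit every test.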
